A study of Mus musculus with 2 samples.

Results

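Interferon regulatory factors (IRFs) are transcription factors that read out pathogen sensing and interferon signalling, and 8 of their genes, Irf1, Irf2, Irf3, Irf4, Irf5, Irf7, Irf8 and Irf9, were followed here among 27998 listed genes. They were taken by gene symbol, and each symbol matched 1 row in both libraries. The libraries held tumor mononuclear phagocytes (TMPs) from B16 melanomas grown in C57Bl/6 mice, 1 library from Fcmr+/+ mice and 1 from Fcmr-/- mice. Fcmr encodes a receptor for the Fc part of immunoglobulin M, and the mutant lacks it in the whole body rather than in myeloid cells alone. The B16F0 melanoma cells were transplanted into the skin, and TMPs were sorted from the digested tumors as MerTk+ CD64+ cells. Animals were littermates matched for sex, age and cage, but neither the ages nor the number of mice behind a library were given in the sources used here. With 1 library per genotype, a difference between libraries has no replicate check, and it cannot be told apart from a difference between animals, sorts or captures. Intervals below are exact 95% intervals and cover counting error only.

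The family divides by role. IRF3, IRF5 and IRF7 sit downstream of Toll-like receptors and of cytosolic nucleic acid sensors, are activated by phosphorylation and drive type I interferon and inflammatory cytokine genes. IRF9 joins STAT2 in the complex that carries the type I interferon signal to the interferon-stimulated response element (ISRE), and Irf7 is itself a textbook target of that complex. IRF1 is induced by interferon gamma through the gamma-activated sequence (GAS), and IRF2 competes with IRF1 for shared sites. IRF4 and IRF8 act with partners such as PU.1 and BATF proteins in lymphoid and myeloid differentiation, IRF4 in alternatively activated macrophages and type 2 dendritic cells, IRF8 in monocytes and type 1 dendritic cells.

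After the limits on genes and mitochondrial UMIs (unique molecular identifiers, each marking 1 captured transcript), 6352 Fcmr+/+ and 7999 Fcmr-/- cells remained, with 128408544 and 124630621 UMIs. The median was 17974 UMIs per Fcmr+/+ cell against 12911 per Fcmr-/- cell, so shares of cells are given after thinning to 6643 UMIs. Cells with fewer UMIs, 151 Fcmr+/+ and 800 Fcmr-/- cells, were left out of these shares. They were also left out of the rankings, bins and pair counts below. The libraries shared 73 cell barcodes. Macrophage markers were abundant in both libraries, at a summed 9931 and 9768 CPM, that is UMIs per 1000000 UMIs of the library. Of 6 listed T and NK cell genes, 5 were measured, none at 0, and their summed level was 0.864 CPM in Fcmr+/+ against 14.5 CPM in Fcmr-/- cells. Fcmr itself gave 7 and 6 UMIs, too few to check the genotype labels.

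Promoter stretches are shown for the members whose windows hold the letters of an interferon-response element. RefSeq promoter windows of GRCm38.p6, from 250 bases before to 50 after each start site, matched all 8 members with 11 windows. The letters GAAANNGAA of an ISRE-type core (TTCNNTTTC on the opposite strand) were found in 1 of the 11 windows, that of Irf2, against 8.56% of 32851 promoters. The GAS letters TTCNNNGAA, which read the same on both strands, were found in 3 of the 11 windows, against 8.30% of all promoters. These were 1 window each of Irf1, Irf2 and Irf8. No matches overlapped. These stretches end before the start site, lie on the gene's strand and carry the matched letters in capitals. That of Irf7, the member with the highest ratio between the libraries, is added for comparison and has no match to either motif in its window.
Irf2, chr8:46739495-46739614 (+), an ISRE-type match 241 bases before the start and a GAS match 224 bases before it: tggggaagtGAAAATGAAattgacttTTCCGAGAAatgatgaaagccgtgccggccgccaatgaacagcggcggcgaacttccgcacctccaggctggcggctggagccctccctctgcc
Irf1, chr11:53769894-53770013 (+), a GAS match 90 bases before the start: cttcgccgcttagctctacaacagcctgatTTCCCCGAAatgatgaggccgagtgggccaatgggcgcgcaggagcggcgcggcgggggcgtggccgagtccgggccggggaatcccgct
Irf8, chr8:120736140-120736259 (+), GAS matches 171 and 153 bases before the start: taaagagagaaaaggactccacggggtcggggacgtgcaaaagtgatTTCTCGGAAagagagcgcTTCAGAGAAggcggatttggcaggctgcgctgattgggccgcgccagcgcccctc
Irf7, chr7:141266482-141266601 (-), no match, ending 58 bases before the RefSeq start: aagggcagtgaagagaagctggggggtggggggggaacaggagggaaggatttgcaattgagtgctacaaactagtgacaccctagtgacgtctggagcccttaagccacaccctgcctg
A match is a description of letters, not of binding. In the GENCODE annotation of GRCm38, Irf7 (ENSMUSG00000025498) spans 141262706 to 141266481 on the minus strand of chromosome 7 and has up to 10 exons in its 13 transcripts. It overlaps Phrf1 on the opposite strand, as Irf3 overlaps Bcl2l12 and Irf5 overlaps Tnpo3. Irf9 overlaps Rnf31 and Irf8 overlaps Gm20388 on the same strand, so reads of those pairs can be split or dropped in counting.

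Irf7 was the member with the largest difference between the libraries. It stood at 69.7 CPM (68.2 to 71.1) in Fcmr+/+ TMPs and at 139.5 CPM (137 to 142) in Fcmr-/- TMPs, a log2 ratio of 0.99 after 1 CPM was added to each value, or 1.99-fold. Of 8701 genes with at least 5 CPM in either library, Irf7 ranked 72 from the highest ratio. After thinning its log2 ratio was 0.81. Irf2 stood at 56.2 CPM (54.9 to 57.5) in Fcmr+/+ and 80.9 CPM (79.3 to 82.5) in Fcmr-/- TMPs, a log2 ratio of 0.52, which was 0.49 after thinning and so below the fold. These were the 2 members at or above a log2 ratio of 0.5, a threshold that 3.16% of all tested genes reached. Irf4 was the 1 member at or below -0.5, against 2.64% of tested genes, with a log2 ratio of -0.67. It stood at 5.68 CPM (5.27 to 6.10) in Fcmr+/+ and 3.20 CPM (2.89 to 3.53) in Fcmr-/- TMPs. Irf4 thus reached the 5 CPM minimum only in the library where it was higher. Over the 8 members the median log2 ratio was 0.24, and 6 of 8 were above 0, as were 50.5% of tested genes, whose median was 0.00.

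Among the factors downstream of nucleic acid sensing, Irf7 was thus alone in passing the fold. Irf3, which is present before stimulation in most cells, stood at 19.6 CPM (18.9 to 20.4) in Fcmr+/+ and 22.1 CPM (21.3 to 23.0) in Fcmr-/- TMPs. Irf5, an activator of inflammatory cytokine genes in macrophages, stood at 104 CPM (103 to 106) and 103 CPM (101 to 105), a log2 ratio of -0.02 whose counting interval ran from -0.05 to 0.02. Irf9, the DNA-binding partner of STAT2, stood at 30.4 CPM (29.5 to 31.4) and 40.7 CPM (39.6 to 41.8), a log2 ratio of 0.41. Irf5 was therefore nearly level between the libraries, while Irf9 lay below the fold.

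Irf1, the activator induced by interferon gamma, stood at 49.1 CPM (47.9 to 50.4) in Fcmr+/+ and 59.3 CPM (58.0 to 60.7) in Fcmr-/- TMPs, a log2 ratio of 0.27, smaller than that of its competitor Irf2. Irf8, the myeloid lineage factor, stood at 152 CPM (149.8 to 154) and 177 CPM (175 to 179.5), a log2 ratio of 0.22. In Fcmr+/+ cells the levels ran, from the highest, Irf8, Irf5, Irf7, Irf2, Irf1, Irf9, Irf3 and Irf4, and in Fcmr-/- cells Irf7 came before Irf5. UMIs of a 3′ library count transcript ends and do not scale with transcript length, so these levels compare molecules captured. No neighbours in either order had overlapping intervals.

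**Figure D1:**
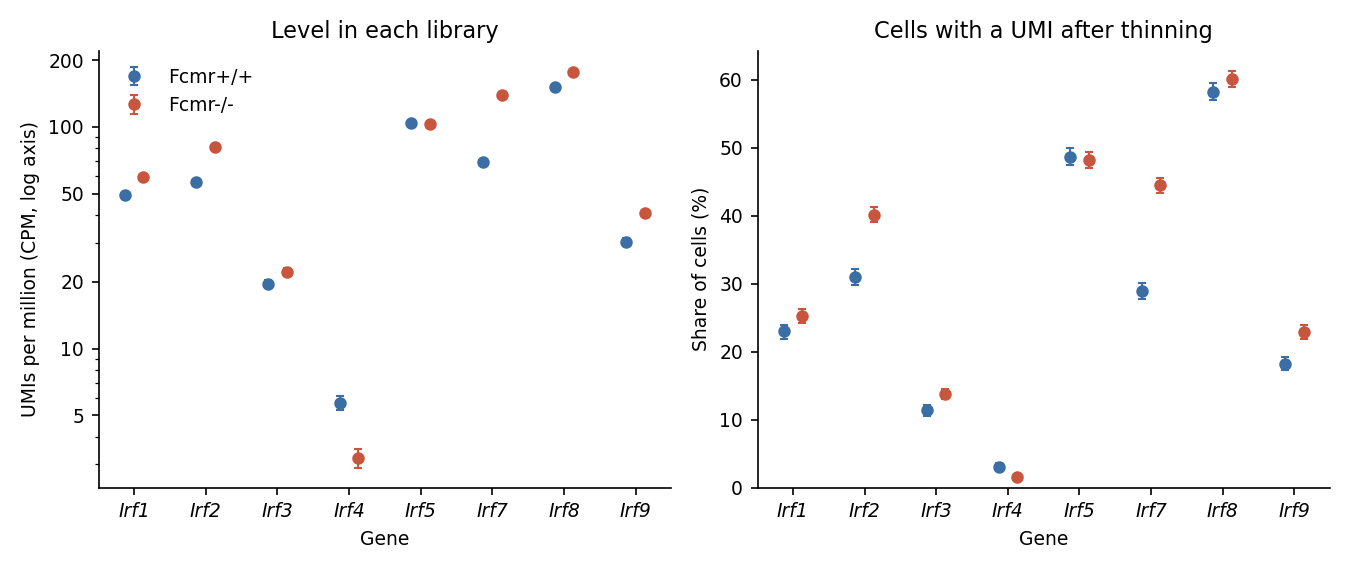
Level of each of 8 interferon regulatory factor genes in the Fcmr+/+ (blue) and Fcmr-/- (red) libraries, as CPM on a log axis (left) and as the share of cells with a UMI after thinning to 6643 UMIs (right). Points are library values and bars are exact 95% counting intervals. The widest gaps are those of Irf7, from 69.7 to 139.5 CPM and from 29.0% to 44.5% of cells.

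The share of cells with at least 1 UMI was compared after thinning, over 6201 Fcmr+/+ and 7199 Fcmr-/- cells. An Irf7 UMI was found in 29.0% of Fcmr+/+ cells (27.8 to 30.1) and in 44.5% of Fcmr-/- cells (43.3 to 45.6). An Irf2 UMI was found in 31.0% (29.9 to 32.2) and 40.2% (39.1 to 41.3). The share was higher in Fcmr-/- cells with intervals apart for 5 members, the others being Irf9 at 18.2% and 22.9%, Irf3 at 11.4% and 13.8% and Irf1 at 23.0% and 25.3%. Irf4 was lower, in 3.13% (2.71 to 3.59) and 1.61% (1.33 to 1.93) of cells. Irf5, at 48.7% and 48.3%, and Irf8, at 58.2% and 60.2%, had overlapping intervals. How many of all tested genes were higher in Fcmr-/- cells with intervals apart was not counted. Whether the count of 5 members is unusual is therefore not known. Without thinning, with deeper Fcmr+/+ cells, 1 member was higher in Fcmr-/- cells, Irf7 at 48.5% and 61.6%. The sort held no cell type known to lack these genes, so the share that free RNA alone would give is not known.

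A joint clustering of both libraries on 1335 variable genes, from which the members had been taken out, gave 11 clusters. They are named here by number and by the genes with the highest fold over the other cells. Over clusters, Irf7 had the widest range of the members: it reached 529 CPM in cluster 10, which was led by the interferon-stimulated genes Rsad2, Ifit1bl1, Cmpk2, Ifit3 and Ifit1. It was 196 CPM in cluster 2, led by Ly6c2, Ly6a and Slamf8, and 34.4 CPM in cluster 11, led by Adm, Pdgfa and Rassf8. The fold from the highest to the lowest cluster was 15.0, and 4 of 10 neighbours in that order had overlapping intervals. A log2 range of at least 1 over clusters was reached by 6 of 8 members and by 41.5% of tested genes. These are descriptions, since the clusters were built from the same cells and from genes that vary with the members.

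Irf9 followed the same order at its ends, from 75.8 CPM in cluster 10 through 43.3 CPM in cluster 2 to 22.8 CPM in cluster 11. Irf1 was highest in clusters 10, 2 and 9, at 97.9, 86.2 and 78.0 CPM, and lowest at 19.0 CPM in cluster 8, led by Mfge8, Plpp3 and Wfs1. Cluster 9 was led by Iigp1, Serpina3g, Cxcl9, AW112010 and Gbp2, genes induced by interferon gamma. Irf2 was highest in clusters 2 and 10, at 106 and 103 CPM, and lowest at 39.8 CPM in cluster 11. Irf8 was highest in cluster 9, at 233 CPM, followed by clusters 2 and 7, both at 213 CPM, and lowest in cluster 4, at 113 CPM. Cluster 7 was led by Acp5, Cyp4f18 and Apoe and cluster 4 by the chemokine genes Ppbp, Cxcl3 and Ccl24.

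Irf4 had a pattern of its own. It was 13.8 CPM in cluster 1, led by Ccl17, Il1r2, Ifitm1, Ear2 and Ltc4s, and at most 4.53 CPM in the other clusters. Some dendritic cell markers were also highest there. Genes of mature dendritic cells summed to 22.9 CPM against at most 5.93 CPM in the other clusters. Those of type 2 dendritic cells summed to 151 CPM against at most 105 CPM. Genes of type 1 dendritic cells were not highest there, at 36.1 CPM against 40.4 CPM in cluster 6 and 36.9 CPM in cluster 9. Each of these last 2 sums rests mostly on 1 gene. In the whole Fcmr+/+ and Fcmr-/- libraries, Clec10a gave 90.7 and 70.7 of the 96.4 and 76.6 CPM of type 2. Wdfy4 gave 29.2 and 31.0 of the 29.8 and 32.8 CPM of type 1. The sums do not measure dendritic cell content. MHC class II genes, at 16020 CPM, were highest in cluster 1 too. Their part in the Irf4 level was not tested. In cluster 1 it was 14.7 CPM (13.2 to 16.3) in Fcmr+/+ and 12.2 CPM (10.3 to 14.3) in Fcmr-/- cells, with overlapping intervals. Cluster 1 held 47.6% of the Irf4 UMIs of the Fcmr+/+ library against 18.4% of all its UMIs, and 36.1% against 9.50% in the Fcmr-/- library. Irf3 and Irf5 had the narrowest ranges, 1.69-fold and 1.71-fold from the highest to the lowest cluster.

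**Figure D2:**
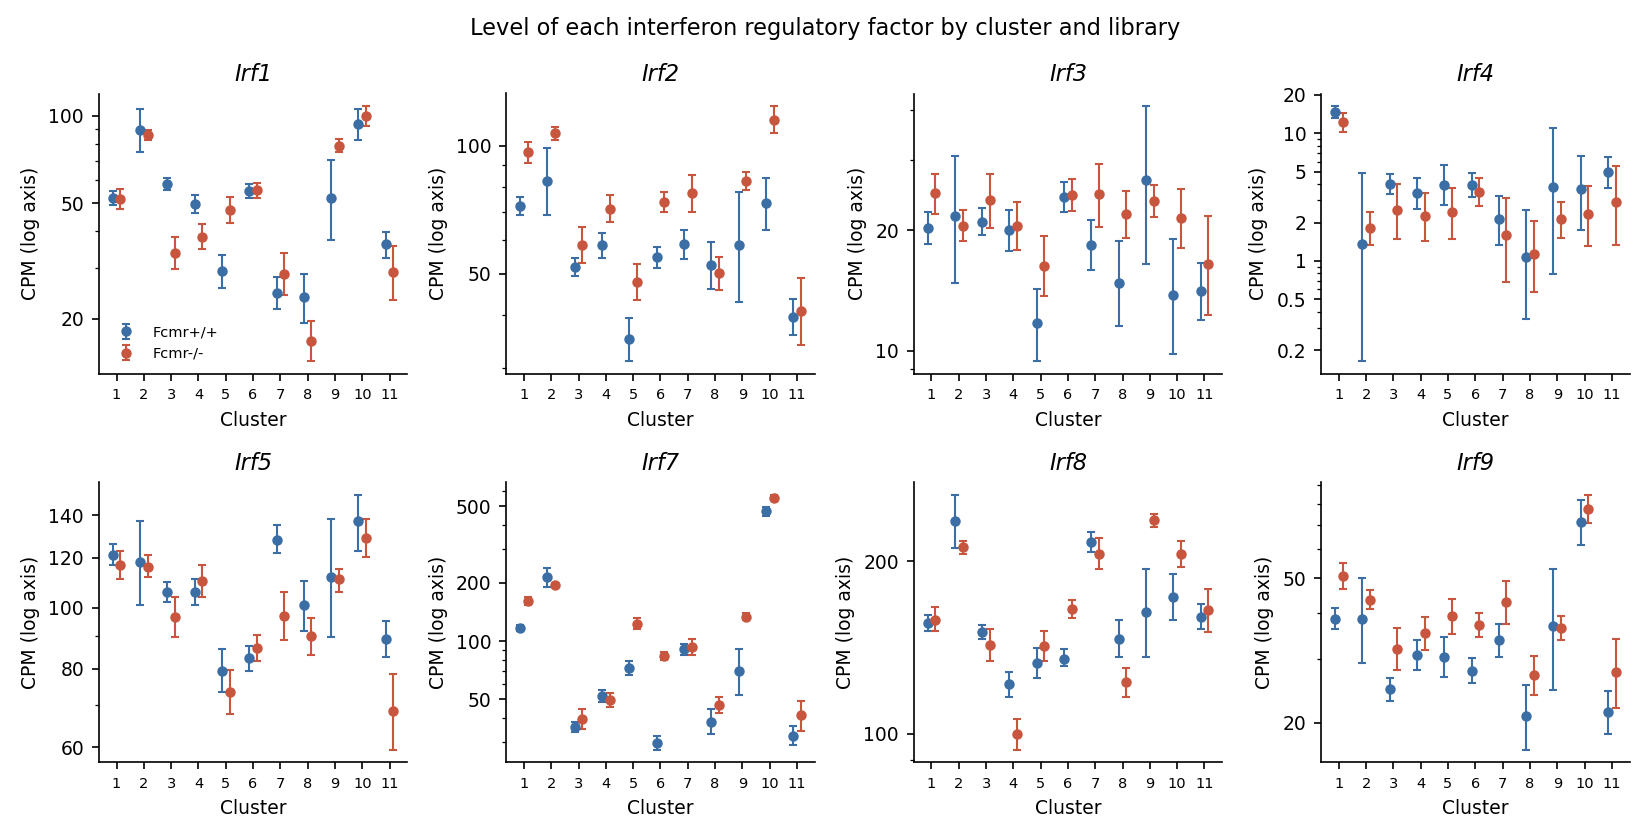
Level of each member in 11 clusters of TMPs, as CPM on a log axis, for Fcmr+/+ (blue) and Fcmr-/- (red) cells. Bars are exact 95% Poisson intervals. Cluster 10 has the highest Irf7 level in both libraries, at 469.9 and 554 CPM, and cluster 1 the highest Irf4 level, at 14.7 and 12.2 CPM.

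The clusters were not evenly filled by the libraries. Fcmr-/- cells made up 95.2% of cluster 2 and 96.5% of cluster 9, where 78 and 33 Fcmr+/+ cells were left. They made up 25.3% of cluster 3. When every cluster was given the same weight in both libraries, the log2 ratio was 0.36 for Irf7 in place of 0.99, 0.35 for Irf2 in place of 0.52, 0.28 for Irf9 and -0.31 for Irf4 in place of -0.67. That weight was the cluster's share of the UMIs of both libraries together. With these clusters no member then passed the fold in either direction. No interval was computed for these ratios. Clusters 2 and 9 held 1.15% and 0.612% of the Fcmr+/+ UMIs, so their Fcmr+/+ levels rest on few cells. The result depended on the clustering: the Irf7 ratio ran from 0.00 at a coarser resolution of 0.4 to 0.85 with genes scaled within each library. With that scaling Irf4 passed the fold too, at -0.52, while Irf2 reached 0.48. Irf1 moved from 0.27 to -0.06 and Irf8 from 0.22 to 0.05. Without clusters 2 and 9 the Irf7 ratio was 0.85, and without cluster 10 it was 0.93.

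Within clusters, no member was higher in Fcmr-/- cells in all 11, which 5.19% of tested genes were. Irf2 and Irf9 were higher in 10 of 11 clusters, and 14.3% of tested genes were higher in at least 10. Irf2 had intervals apart in 8 of them. Irf2 stood at 72.2 CPM (68.8 to 75.7) in Fcmr+/+ and 96.5 CPM (91.0 to 102) in Fcmr-/- cells of cluster 1, and at 73.2 CPM (63.4 to 84.0) and 115 CPM (107 to 124) in cluster 10. Its log2 ratios ran from -0.06 in cluster 8 to 0.65 in cluster 10. Irf9 ratios were as even, from -0.02 to 0.41, with intervals apart in 4 clusters.

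Irf7 ratios were uneven. Irf7 was higher in Fcmr-/- cells in 9 of 11 clusters, with intervals apart in 5. The gap was widest in cluster 6, led by the mitotic genes Cenpf, Nusap1, Prc1, Pbk and Ccna2, which held 723 Fcmr+/+ and 722 Fcmr-/- cells. There it stood at 29.7 CPM (27.4 to 32.1) in Fcmr+/+ and 83.6 CPM (79.5 to 87.9) in Fcmr-/- cells, a log2 ratio of 1.46. In cluster 5, led by Hbb-bs, Hba-a1, Inhba and Nos2, it stood at 72.8 CPM (67.0 to 79.0) and 123 CPM (116 to 131). In cluster 10 the gap was smaller, from 469.9 CPM (445 to 496) to 554 CPM (536 to 573). In cluster 2 it was 214 CPM (191 to 238) in Fcmr+/+ and 195 CPM (190.0 to 201) in Fcmr-/- cells, with overlapping intervals. The T and NK cell genes summed to 28.4 CPM in cluster 6, 8.20 CPM in cluster 5, 5.34 CPM in cluster 10 and 5.71 CPM in cluster 2. Their part in these ratios was not tested within clusters. Over the whole libraries the Irf7 ratio was 0.74, in place of 0.99, in the 1707 and 2964 cells without a UMI of any listed T and NK, B or dendritic cell gene. It was 1.00 in the 6011 and 7498 cells left when Cd79b, Wdfy4 and Clec10a were dropped from those lists, a choice made after seeing the data.

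Irf1 and Irf8 differed in direction between clusters. Irf1 was lower in Fcmr-/- cells of cluster 3, led by Tfrc, Cnrip1 and Gas6, at 58.3 CPM (55.6 to 61.1) against 33.8 CPM (29.7 to 38.4), and of cluster 4, at 49.8 against 38.4 CPM. It was higher in Fcmr-/- cells of cluster 5, at 29.2 CPM (25.5 to 33.1) against 47.5 CPM (42.9 to 52.4). Irf8 was lower in cluster 4, at 122 CPM (116 to 128) against 99.9 CPM (93.8 to 106), and higher in cluster 6, at 135 CPM (131 to 140.4) against 165 CPM (159 to 171). Irf5 was lower in Fcmr-/- cells of cluster 7, at 128 CPM (122 to 135) against 97.1 CPM (88.7 to 106), and of cluster 11, at 89.2 against 68.4 CPM. Irf4 had overlapping intervals in every cluster.

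**Figure D3:**
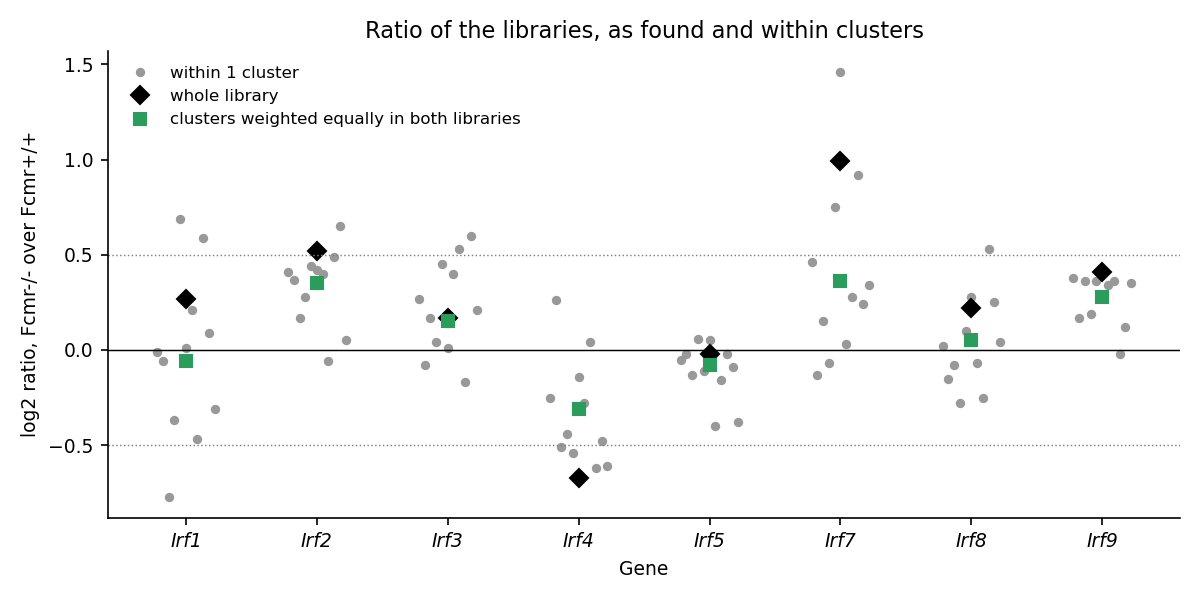
Log2 ratio of Fcmr-/- to Fcmr+/+ cells, with 1 CPM added, for each member. Grey points are the 11 clusters, in cluster order from left to right, and black diamonds are whole libraries. Green squares give each cluster the same weight in both libraries, its share of the UMIs of both together. Dotted lines mark 0.5 and -0.5. For Irf7 the whole-library ratio of 0.99 lies above the ratio of 0.36 with the same weights, and its clusters run from -0.13 to 1.46.

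Co-expression with interferon targets was described by ranking the cells of each library on the summed thinned UMIs of 20 type I interferon targets and cutting them into 5 equal groups. Irf7 increased at every step in both libraries, from 21.1, 30.5, 47.1 and 74.8 to 181 CPM in Fcmr+/+ and from 32.9, 62.2, 105 and 163 to 309 CPM in Fcmr-/- cells. The top group was thus 8.23-fold over the bottom group in Fcmr+/+ and 9.15-fold in Fcmr-/- cells. Irf9 increased from 17.8 to 45.2 CPM and from 26.0 to 57.6 CPM, and Irf5 from 99.7 to 111 CPM and from 88.7 to 113 CPM. These 3 members increased at every step in both libraries, as did 4.30% of tested genes. Every step of Irf5 in Fcmr+/+ cells had overlapping intervals. Irf1, Irf2 and Irf8 each missed only by a step down in Fcmr+/+ cells, also with overlapping intervals. Those steps were from 43.3 to 42.6, from 51.1 to 50.1 and from 156 to 149.6 CPM. From the bottom to the top group, Irf1 rose 1.64-fold in Fcmr+/+ and 3.72-fold in Fcmr-/- cells. No member decreased at every step, as 1.86% of tested genes did.

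The same was done with the interferon gamma targets. B2m, the light chain of MHC class I, gave 73.3% of the UMIs of this list in Fcmr+/+ and 56.0% in Fcmr-/- cells, so the ranking was also made without it. With B2m, Irf2, Irf7 and Irf8 increased at every step in both libraries, against 3.98% of tested genes. Without B2m, Irf1, Irf5 and Irf7 did, against 4.05%. Some members missed by small steps. With B2m, Irf9 missed only by a step from 43.2 to 43.0 CPM in Fcmr-/- cells, with overlapping intervals. Without B2m, Irf8 missed only by a step from 148 to 146 CPM in Fcmr+/+ cells, also with overlapping intervals. Irf1 with B2m fell from 50.8 to 44.6 CPM in Fcmr+/+ cells, with intervals apart. The part of B2m in the change of members was not tested. No member decreased at every step over either, against 3.59% with and 2.11% without B2m. Irf7 was the 1 member that increased at every step over all 3 rankings. The share of tested genes that did so was not counted, and 2 of the 3 rankings differ only in B2m.

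Immediate early and heat shock genes, which tissue dissociation induces, gave a ranking of another kind. They summed to 2912 CPM in Fcmr+/+ and 2508 CPM in Fcmr-/- cells, with Egr1 at 201 and 72.8 CPM and Jun at 483 and 296 CPM. Of 8 listed genes, Egr1 and Jun were the 2 at or below the fold, and 0 were at or above it. A log2 ratio above 0 was seen for 3 of the 8, among them Fos at 1240 and 1249 CPM and Hspa1b at 109 and 137 CPM. Over this ranking 0 members increased and 0 decreased at every step in both libraries, against 3.29% and 3.06% of tested genes. Irf7 did increase at every step in Fcmr+/+ cells, from 50.9 to 85.3 CPM. In Fcmr-/- cells it ran from 83.3 to 161 CPM, with a step down from 151 to 145 CPM. Irf7 was higher in Fcmr-/- cells in all 5 groups, with log2 ratios between 0.70 and 1.08.

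Irf1 and Irf8 stepped differently in the libraries. Over the ranking without B2m, Irf1 ran from 38.8 to 66.8 CPM in Fcmr+/+ and from 24.1 to 111 CPM in Fcmr-/- cells. Irf1 was thus lower in Fcmr-/- cells of the bottom group, with a log2 ratio of -0.67, and higher in those of the top group, with a log2 ratio of 0.72, where the median cell had 11 target UMIs in Fcmr+/+ and 39 in Fcmr-/- cells. Irf8 ran from 146 to 173 CPM in Fcmr+/+ and from 121 to 269 CPM in Fcmr-/- cells. Irf2 ran from 51.0 to 68.1 CPM and from 54.3 to 105 CPM. The target UMIs of the groups differ between libraries, since the cells were ranked within each.

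**Figure D4:**
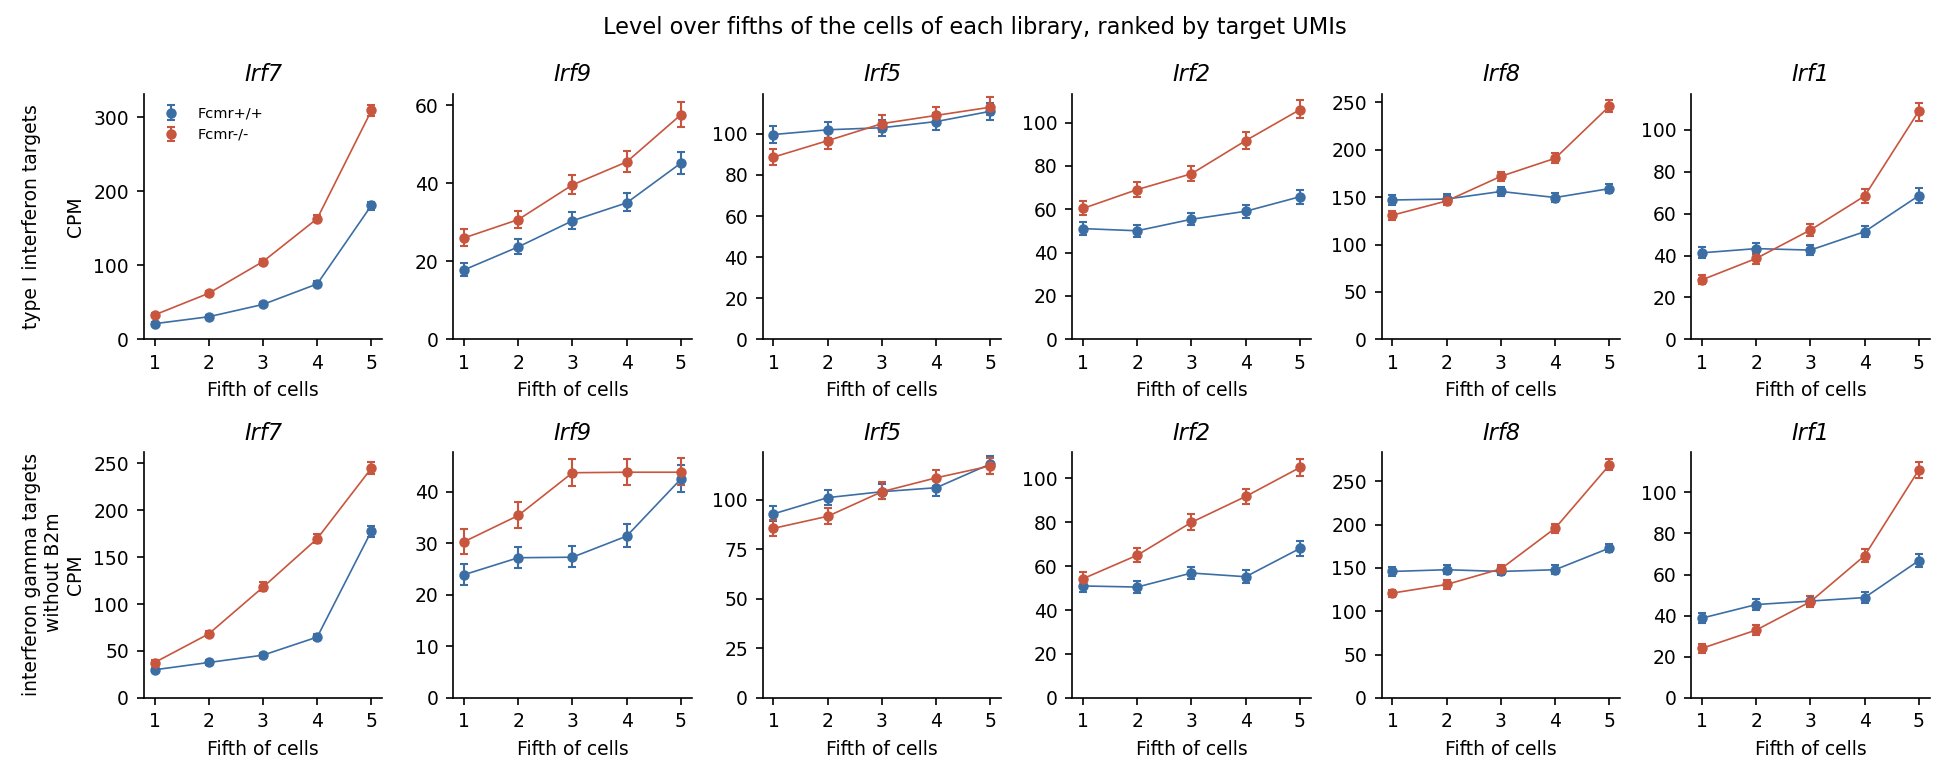
CPM of 6 members over 5 equal groups of cells of each library, from the lowest (1) to the highest (5) summed target UMIs, for 20 type I interferon targets (top) and for the interferon gamma targets without B2m (bottom). Blue is Fcmr+/+, red is Fcmr-/-, bars are exact 95% Poisson intervals and lines join the groups of a library. Irf7 climbs in both libraries, to 181 and 309 CPM over the type I ranking, while Irf1 and Irf8 climb more in Fcmr-/- cells, whose top group holds more target UMIs.

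When cells of both libraries were placed in common bins of type I target UMIs, Irf7 remained higher in Fcmr-/- cells in all 5 bins, with log2 ratios between 0.33 and 0.55. In common bins of interferon gamma target UMIs its ratios ran from -0.56 to 0.19 with B2m in the list, higher in Fcmr-/- cells in 3 of 5 bins, and from -0.78 to 0.40 without B2m, higher in 4 of 5. In both cases the lowest ratio was that of the top bin, which without B2m held 252 Fcmr+/+ and 2549 Fcmr-/- cells. Irf1 was lower in Fcmr-/- cells in all 5 gamma bins without B2m, with ratios from -0.82 to -0.04. Its higher level in the top group of the ranking within each library was thus not seen in these bins. The top bin has no upper limit, and its median cell had 22 target UMIs in Fcmr+/+ and 30 in Fcmr-/- cells. With B2m the Irf1 ratios ran from -0.95 to 0.44, and over the type I bins from -0.47 to 0.41. In both of these the highest ratio was that of the top bin, where Irf1 was higher in Fcmr-/- cells. The Irf8 ratios ran from -0.29 to 0.11 over the gamma bins without B2m, higher in 1 of 5 bins. Irf2 was higher in all 5 bins of each list, between 0.23 and 0.65 over the type I bins and between 0.10 and 0.45 with and 0.05 and 0.35 without B2m over the gamma bins. Irf4 was lower in all 5 bins of each.

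The number of members found in a cell was low at this depth. After thinning, the median cell had a UMI of 2 members in the Fcmr+/+ and of 3 in the Fcmr-/- library, and 6.95% and 5.13% of cells had none. Of all 28 pairs, Irf7 and Irf9 were found together in 6.39% of Fcmr+/+ cells (5.79 to 7.02) and 12.0% of Fcmr-/- cells (11.2 to 12.8). Independent detection would give 5.28% and 10.2%, a ratio of 1.21 and 1.18. Irf1 and Irf7 were found together 1.02 times as often as that in Fcmr+/+ and 1.15 times in Fcmr-/- cells. Irf4 and Irf7 were found together 0.87 times as often in each library, in 49 and 45 cells. Over all pairs and both libraries the ratio ran from 0.77, for Irf3 and Irf4 in 17 Fcmr+/+ cells, to 1.24, for Irf4 and Irf9 in 33 Fcmr-/- cells. The departures are small. For Irf7 with Irf9 both intervals lay above the independent values, while pairs with Irf4 rest on few cells. The same held for Irf2 with Irf7, at a ratio of 1.09 in Fcmr+/+ and 1.12 in Fcmr-/- cells. All are given as a description.

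Levels of the members were also compared with each other over the 22 groups of cluster and library, which share libraries and depth. Irf7 and Irf9 were the most alike pair, with a Pearson r of 0.92 on log2 CPM, followed by Irf2 with Irf9 at 0.75 and Irf2 with Irf7 at 0.72. Irf4 lay between -0.18 and 0.19 with every other member. Some groups held very few Irf4 UMIs, such as 2 in Fcmr+/+ cells of cluster 2 and 3 in those of cluster 9. Its correlations therefore carry large counting error. Among 5255 genes of at least 20 CPM, the genes most like Irf7 were Ifi204, Slfn1, Pyhin1, Ms4a4c and Xaf1, at r of 0.95 to 0.96. Those most like Irf9 were Pyhin1, Xaf1, Oasl2, Stat2 and Ifi204, at 0.93 to 0.94, among them its partner Stat2. Those most like Irf1 were Cd40, Cxcl10, Lrrc8c, Sp110 and Mndal, at 0.85 to 0.88, and those most like Irf2 included Nmi, Gsdmd, Ly6e and Samhd1, at 0.91 to 0.92.

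The genes most like Irf8 were Cxcl16, Il18bp, H2-M3, H2-D1 and Tmbim4, at 0.78 to 0.88, and include class I MHC genes. Those most like Irf4 were Ltc4s, which makes leukotriene C4, Lyve1, Avpi1, Egr1 and Mgl2, a lectin of alternatively activated macrophages, at 0.73 to 0.88. Those most like Irf5 were Shisa5, Myd88, Ms4a6d, Ms4a6c and Acaa1a, at 0.83 to 0.88, with Myd88 the adaptor of most Toll-like receptors. Those most like Irf3 were Hnrnpm, Btk, Dnajc7, Herc2 and Dock2, at 0.91 to 0.96.

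Among the lists of genes around the IRFs, the 2 target lists had the largest shares at or above the fold, which 3.16% of tested genes reached. The lists were chosen with earlier results of these data known, so this contrast is a description and not a test. Of the sensors and adaptors upstream, 18 of 20 reached 5 CPM, with 3 at or above the fold, 1 at or below it and a median log2 ratio of 0.06. The 3 were named after their values were seen. They were Tlr3 (0.53, under 5 CPM in Fcmr+/+), the adaptor of cytosolic DNA sensing Tmem173 (0.66) and the IRF kinase Ikbke (0.58). The 1 was Tlr7, a sensor of RNA in endosomes, at 65.0 CPM in Fcmr+/+ and 43.4 CPM in Fcmr-/- TMPs. Tlr4 gave 28.0 and 36.7 CPM and Tlr13 59.7 and 58.7 CPM, while Tlr8 and Tlr9 stayed under 5 CPM in both libraries.

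Of 10 receptor, JAK and STAT genes, 2 were at or above the fold and 0 at or below it, with a median of 0.08. Stat2, the partner of Irf9, stood at 15.9 CPM in Fcmr+/+ and 29.1 CPM in Fcmr-/- TMPs, a log2 ratio of 0.83 against 0.41 for Irf9. The receptor genes of type I interferon, Ifnar1 and Ifnar2, had log2 ratios of 0.19 and -0.19, and those of interferon gamma, Ifngr1 and Ifngr2, of -0.24 and 0.05.

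Of 20 type I interferon targets, 15 were at or above the fold and 0 at or below it, with a median of 0.71. Isg15 stood at 150.4 and 275 CPM, Ifit3 at 30.3 and 44.0 CPM and Rsad2 at 174 and 246 CPM, while Ifit1, at 74.8 and 67.4 CPM, Ifit2, at 30.6 and 41.0 CPM, and Mx1, at 14.4 and 17.0 CPM, did not pass. Of 22 interferon gamma targets tested, 21 passed, with a median of 1.11, among them the guanylate-binding protein gene Gbp2 at 21.4 and 139 CPM, Gbp3 at 10.8 and 33.8 CPM and the GTPase gene Igtp at 10.7 and 37.6 CPM. The interferon gamma list includes Iigp1, Serpina3g, Cxcl9, AW112010 and Gbp2, the leading genes of cluster 9, where 96.5% of cells were Fcmr-/-. Some of the tested target genes reached 5 CPM only in Fcmr-/- cells. Among them were Iigp1, at 3.19 and 72.6 CPM, and Serpina3g, at 2.77 and 38.4 CPM. Genes that pass the minimum in this way are higher in Fcmr-/- cells by selection. The Irf7 ratio of 0.99 lay between the medians of these 2 target lists, and those of the other 7 members lay below both.

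Of 12 binding partners and IRF2-binding proteins tested, 1 passed, Batf2 at 3.26 and 12.8 CPM, which reached 5 CPM only in Fcmr-/- cells. Spi1, which encodes PU.1, stood at 327 and 305 CPM, Batf3 at 12.7 and 17.1 CPM, Batf at 22.4 and 19.4 CPM and Ikzf1 at 36.2 and 38.3 CPM. None of 7 negative regulators passed, with a median of 0.02, from Tnfaip3 at -0.34 to the ubiquitin ligase gene Trim21 at 0.45, with Rbck1, Lyn, Socs3 and Peli1 between. None of 9 lineage factors tested passed, with a median of -0.26, from Klf4 at -0.49 to Zeb2 at 0.17, with Cebpa, Cebpb, Nr4a1, Maf, Id2 and Nfil3 between.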

How the data were processed

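TMPs were captured with a 10x Genomics Chromium 3′ kit. The authors aligned and counted reads with Cell Ranger against GRCm38 and used Seurat 2.1.0, per the methods and the submitters' processing notes. The deposited values were UMI counts per gene and cell, filtered to called cells. Cells were kept at 200 to 7000 genes and at most 30% mitochondrial UMIs, and clustering used genes found in 3 or more cells. No doublet caller was run. UMIs were summed per library, cluster or group of cells and divided by their total (CPM). Ratios are log2 with 1 CPM added, for genes with at least 5 CPM in either library. Intervals are exact Poisson (CPM) or Clopper-Pearson (shares). Clusters came from Seurat 5.3.0 in R 4.3.3, with 10 principal components, 30 neighbours and resolution 0.8, and all other values from Python 3.11.15 (scipy 1.17.1, numpy 2.4.6). With 1 library per genotype no test was run. Ratios and steps were tested on simulated Poisson counts, which hold no variation between animals, sorts or captures and so cannot stand in for replicates. All 8 members were named, every gene of a pathway list of up to 10 and otherwise the first 6 by list order, the 5 genes most like each member, and the leading genes of clusters, except a few genes that are not reported here. The members and the lists were chosen with earlier results of these data known. Alternatives covered the added CPM, scaling, filters, thinning, cell sets, clustering, bins and correlation.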

Additional observations from a re-analysis of the deposited data

Results flagged for a closer look

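The difference between Fcmr-/- and Fcmr+/+ cells took opposite directions in different clusters for 2 members, with counting intervals apart on both sides. Irf1 had a log2 ratio of 0.69 in cluster 5, led by Hbb-bs and Hba-a1, and of -0.77 in cluster 3, led by Tfrc and Cnrip1. Irf8 had a log2 ratio of 0.53 in cluster 9, led by Iigp1 and Serpina3g, which rests on 33 Fcmr+/+ cells, and of -0.28 in cluster 4, led by Ppbp and Cxcl3. With 1 library per genotype, whether these ratios differ between clusters was not tested. How many of all tested genes took opposite directions in this way was not counted. Whether the count of 2 members is unusual is therefore not known.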

How the results depend on the processing

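No paired analysis was possible because the labels carry no replicate numbers and each genotype has 1 library, which also leaves no replicate to leave out. The count of members at or above a log2 ratio of 0.5 was 2. It became 1 after thinning and 1 in the 1707 and 2964 cells without a UMI of any listed lymphoid or dendritic cell gene. It became 0 with the same cluster weights in both libraries, 1 without the clusters of over 90% Fcmr-/- cells and 1 without cluster 10. The last 2 settings and the defining-marker, common-bin, B2m and stress-list settings were chosen after seeing the data. The count at or below -0.5, which is Irf4, was 1, and became 0 in those 1707 and 2964 cells, where the Irf4 ratio was -0.81 but its level was under the 5 CPM minimum, and with a 20 CPM minimum, which drops Irf4. It was also 0 with the same cluster weights in both libraries (-0.31) and without the clusters of over 90% Fcmr-/- cells (-0.46). With the same cluster weights in both libraries and genes scaled within each library, Irf7 (0.85) and Irf4 (-0.52) passed. Pathway genes lower by the fold were 1, and 2 after thinning. Members higher in every cluster were 0, and 2 when interferon targets were left out of clustering. They were 2 at resolution 0.4, 1 at resolution 1.2, 1 with 20 principal components and 3 with genes scaled within each library. Resolution 0.4 gave 6 clusters, so fewer had to be higher. Members increasing at every step were 3 in both rankings, and 6 in both with cells cut into 3 groups, which leaves fewer steps to pass. They were 5 over the interferon gamma ranking on shares of all UMIs. For these other clusterings and groupings the share of all tested genes was not counted. Whether their member counts are unusual is therefore not known. Members with a higher share of cells were 5, and 1 without thinning. Of the 40 names of most alike genes, 20 remained with Spearman correlation and 21 with clusters made without interferon targets. Apart from the construction of each setting, the cause was not tested.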

Other observations

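The interferon genes themselves, named after their values were seen, differed in opposite directions between the libraries. Ifnb1, which encodes interferon beta, gave 1323 UMIs in Fcmr+/+ and 495 in Fcmr-/- cells, or 10.3 CPM (9.76 to 10.9) and 3.97 CPM (3.63 to 4.34). Ifng gave 1 and 41 UMIs. The T and NK cell genes moved the same way, at a summed 0.864 and 14.5 CPM over the 5 measured, with Gzmb at 10 and 619 UMIs and Nkg7 at 32 and 504, and their part in the Ifng counts was not tested.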
